A study of Homo sapiens with 4 samples.

Results

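The ISG15 conjugation system is a set of 6 genes that attach the ubiquitin-like protein ISG15 to other proteins and take it off again. Its members were taken by gene name from the table of counts, as the modifier ISG15, its activating enzyme UBA7, its conjugating enzyme UBE2L6, the ligases HERC5 and HERC6, and the protease USP18, so 6 of the 58735 genes in the table were described. All 6 had enough counts to be tested, as did 15817 genes in total. The counts come from total RNA of HCC1954, an established human breast cancer cell line, in 4 samples. The 2 shCON samples carried a scrambled short hairpin RNA as negative control, and the 2 shZDHHC15 samples carried a hairpin against ZDHHC15, a palmitoyltransferase that the study examined in relation to the Hippo/YAP pathway. Both hairpins were in GIPZ lentiviral vectors. The series text calls the knockdown stable, whereas the labels describe plasmids introduced by lipid transfection and cells harvested after 36 h, and the supplementary methods mention screening of monoclonal cultures. Each group holds a sample 1 and a sample 2, and the labels leave unstated whether they came from separate cultures, clones or hairpins, so p-values measure only the spread between these samples, which may be technical.

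ISG15 is a small protein built like a tandem of ubiquitin folds, and its gene is among the classical targets of type I interferon. In the conjugation cascade UBA7 activates ISG15, UBE2L6 receives it, and a ligase, in human cells mainly HERC5, passes it to newly made proteins. USP18 cleaves ISG15 from its targets and, in a separate role, binds the interferon receptor chain IFNAR2 and damps its signalling. Interferon acts on such genes through a complex that holds STAT2 and IRF9 and recognises a promoter element called the interferon-stimulated response element (ISRE).

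Promoter sequences are shown first because the members moved together and because this element could be looked for in them. RefSeq sequences on GRCh38.p14, from 250 bases before to 50 bases after each transcription start, were matched for 4 of the 6 members (ISG15, HERC5, HERC6 and UBE2L6), and UBA7 and USP18 were not matched. The core of the ISRE, spelt GAAA, any 2 bases and GAAA again, was searched on both strands. For ISG15 and HERC5, which held the core, and for HERC6, the direct neighbour of HERC5, in which these letters were not found, the 130 bases before the start are given 5′ to 3′ on the gene's strand, with matches to the core in capitals.
ISG15, chr1:1013367-1013496, plus strand: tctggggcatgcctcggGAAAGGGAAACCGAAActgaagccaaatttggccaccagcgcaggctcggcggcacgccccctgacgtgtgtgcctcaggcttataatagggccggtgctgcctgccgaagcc
HERC5, chr4:88456989-88457118, plus strand: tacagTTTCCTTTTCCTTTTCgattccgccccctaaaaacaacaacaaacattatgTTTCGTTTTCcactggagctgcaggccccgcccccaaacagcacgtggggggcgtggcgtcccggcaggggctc
HERC6, chr4:88378722-88378851, plus strand: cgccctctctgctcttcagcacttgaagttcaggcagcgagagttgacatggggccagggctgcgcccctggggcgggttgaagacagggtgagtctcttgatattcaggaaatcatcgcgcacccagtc

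The RefSeq start of ISG15, 1013497, lies inside the longer span that the count table gives for the gene. The ISG15 promoter held 2 overlapping matches, together running from 113 to 98 bases before the start. The HERC5 promoter held 3 matches, all read on the opposite strand, of which 2 overlapped between 125 and 110 bases before the start and the other lay between 74 and 65 bases before it. The core was found in 3.57% of 35116 RefSeq promoters of the same length. Among tested genes with a matched promoter it was found in 4.003% (10743 genes), and among those that rose by more than 2 on the log2 scale in 19.3% (43 of 223). The letters were not found in the window of HERC6 or at either of the 2 listed starts of UBE2L6. The RefSeq starts of HERC6 and UBE2L6 also lie inside the spans of these genes. The UBE2L6 windows reach only to position 57568185, short of the 5′ end of the gene at 57568284, so sequence upstream of that end was not searched. Neither the core of the gamma-activated site, TTCNNNGAA, nor the core of the TEAD site, GGAATG, was found in any of the 5 member windows. Their shares over all promoters were 7.66% and 14.0%. At such shares most promoters hold no match, so 5 windows from 4 genes cannot show an absence particular to the members.

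The count table gives positions on GRCh38, and every gene in it had the same start and end in GENCODE release 29. The counts on genes summed to between 17560982 and 19118704 per sample. Every level below is in CPM, the count divided by the library total scaled with edgeR's TMM factors and given per 1000000 counts, or in CPM per kilobase of gene length where levels of different genes are compared. ZDHHC15 itself had counts of 17617 and 15716 in shCON cells and of 0 in both shZDHHC15 samples, which allows up to 3. Its fitted log2 fold change was the lowest of all 15817 tested genes. How the transcript came to have no counts, where a hairpin was used, was not tested. Of 10 breast epithelial markers, all were expressed in every sample, with ERBB2 at 92598 counts or more, but 8 were lower and 1 was higher in shZDHHC15 cells, and their summed level was 27640 and 30356 CPM in shCON and 15046 and 16104 CPM in shZDHHC15. In bulk RNA, fewer cells of a type and less RNA per cell cannot be told apart. The summed level of 18 blood cell markers was 16.5 and 17.3 CPM in shCON and 12.5 and 12.99 CPM in shZDHHC15. Of these 18, 10 stayed at or under 3 counts in every sample, among them CD3D, CD3E, CD2 and MS4A1, and of the 3 that were tested CSF1R was lower (-1.06, edgeR adjusted p = 0.00134), CD14 higher (1.61, edgeR adjusted p = 0.0159) and NCAM1 not called. The summed level of 10 stromal and endothelial markers was 62.9 and 64.3 CPM in shCON and 119 and 110 CPM in shZDHHC15, where PECAM1, CDH5 and COL1A1 were higher (2.91, 0.65 and 0.65 in log2 units), KDR was lower (-0.64), and COL3A1, DCN, LUM and PDGFRB stayed at or under 3 counts. CD14 had enough counts to be tested only through its shZDHHC15 samples. The part of these markers in the results below was not tested.

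All 6 members of the ISG15 system rose in ZDHHC15-depleted cells, by between 5.06-fold and 12.8-fold. Each had an adjusted p under 0.05 by edgeR's quasi-likelihood test, where 21.7% of all tested genes were called higher, 20.3% lower and 42.0% in either direction. In every member both shZDHHC15 samples lay above both shCON samples, which held for 37.2% of all tested genes, while 35.3% lay below in both. Each member was also called higher with a log2 fold change above 2, as were 2.40% of tested genes. The median log2 fold change of the members was 3.27, against 0.02 over all tested genes. With 2 samples per group the smallest two-sided permutation p is 0.333, so the calls depend on the spread that edgeR estimates jointly over all genes.

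**Figure D1:**
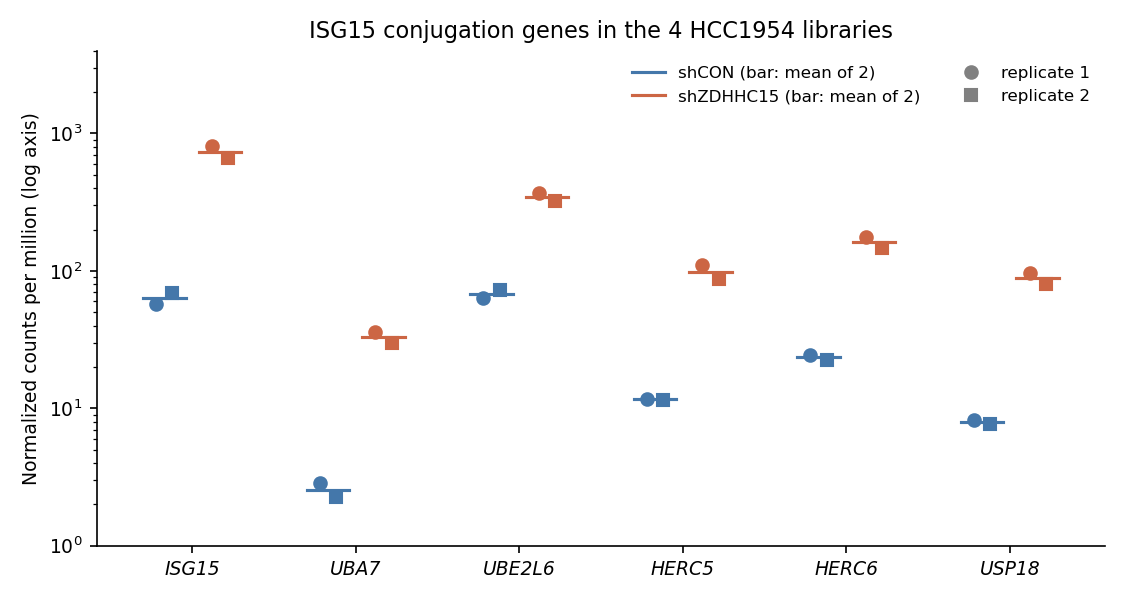
Normalized counts in CPM (log axis) of the 6 genes in each of the 4 libraries, with circles for replicate 1, squares for replicate 2 and bars for the mean of 2 samples. For every gene the orange shZDHHC15 points lie above the blue shCON points, with UBA7 running from 2.25 to 36.0 CPM and ISG15 from 56.9 to 812 CPM.

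The modifier itself, ISG15 (ENSG00000187608, protein-coding, chromosome 1, 1001138 to 1014540, plus strand), had counts of 1038 and 1166 in shCON cells and of 15123 and 13027 in shZDHHC15 cells. These were 56.9 and 69.1 CPM in shCON and 812 and 664 CPM in shZDHHC15. The groups did not overlap, and the lower shZDHHC15 sample was far above the higher shCON sample. The mean rose from 63.0 ± 8.62 to 738 ± 105 CPM (SD, n = 2), which is 3.55 on the log2 scale (SE, the standard error, 0.125, edgeR adjusted p = 2.42e-11). ISG15 was already an abundant transcript in control cells, at percentiles 94.9 and 95.6 of tested genes per kilobase, and it stood at percentile 99.8 in both shZDHHC15 samples. A processed pseudogene on the opposite strand, AL645608.3, shares 36 exonic bases with it and received at most 3 counts in any sample.

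UBA7, the E1 enzyme that activates ISG15 (ENSG00000182179, protein-coding, chromosome 3, 49805207 to 49813946, minus strand), was the scarcest member per kilobase. It had counts of 52 and 38 in shCON cells and of 670 and 589 in shZDHHC15 cells. The smallest of these, 38 counts, has an exact 95% Poisson interval of 26.9 to 52.2, which covers counting error only. Its level rose from 2.55 ± 0.424 to 33.0 ± 4.23 CPM (SD, n = 2). Rising by 3.68 in log2 units (SE 0.189, edgeR adjusted p = 1.34e-09) it had the largest fitted rise of the 6. Its place among tested genes per kilobase moved from percentiles 19.5 and 17.2 in shCON to percentiles 66.2 and 62.4 in shZDHHC15. The gene contains the microRNA gene MIR5193, which had 0 counts in all 4 samples.

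UBE2L6, the E2 enzyme that takes ISG15 from UBA7 (ENSG00000156587, protein-coding, chromosome 11, 57551656 to 57568284, minus strand), had counts of 1165 and 1219 in shCON cells and of 6874 and 6285 in shZDHHC15 cells. Its level rose from 68.1 ± 5.91 to 345 ± 34.6 CPM (SD, n = 2). This rise of 2.34 in log2 units (SE 0.107, edgeR adjusted p = 3.91e-10) was the smallest of the 6. Per kilobase, UBE2L6 stood at 29.1 and 32.9 CPM in shCON, against 60.5 and 73.5 for ISG15, and at 168 and 146 CPM in shZDHHC15, against 863 and 705 for ISG15.

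The ligase genes HERC5 and HERC6 lie next to each other on chromosome 4, on the plus strand, 14005 bases apart. HERC5, the main human ISG15 ligase (ENSG00000138646, protein-coding, 88457117 to 88506163), received 214 and 193 counts in shCON and 2043 and 1702 counts in shZDHHC15. It rose from 11.6 ± 0.210 to 98.2 ± 16.3 CPM (SD, n = 2), or by 3.08 in log2 units (SE 0.140, edgeR adjusted p = 3.48e-10). HERC6, its close relative, which is the ISG15 ligase of mice (ENSG00000138642, protein-coding, 88378739 to 88443111), received 448 and 377 counts in shCON and 3290 and 2896 counts in shZDHHC15. It rose from 23.5 ± 1.57 to 162 ± 20.6 CPM (SD, n = 2), or by 2.79 in log2 units (SE 0.120, edgeR adjusted p = 2.11e-10). HERC6 was thus the more abundant of the pair in all 4 samples. Per kilobase there were 58.1 and 62.2 HERC5 per 100 HERC6 in shCON and 75.5 and 71.4 in shZDHHC15, and these values did not overlap between groups (exact two-sided permutation p = 0.333, the smallest that 2 against 2 samples allow).

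USP18, the protease that removes ISG15 (ENSG00000184979, protein-coding, chromosome 22, 18149899 to 18177397, plus strand), had counts of 151 and 130 in shCON cells and of 1806 and 1570 in shZDHHC15 cells. It rose from 7.995 ± 0.407 to 88.5 ± 12.03 CPM (SD, n = 2), or by 3.47 in log2 units (SE 0.141, edgeR adjusted p = 1.18e-10). USP18 shares a stretch of 917 bases at 98.7% identity with its paralog USP41, so reads could be split between them. USP41 received 0 counts in both shCON samples and 7 and 4 in the shZDHHC15 samples, where a count of 0 allows up to 3 counts. No other member shared a stretch of at least 150 bases at 97% identity or more with another annotated gene.

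In the order of the rises, UBA7, ISG15 and USP18 came first, HERC5 and HERC6 next and UBE2L6 last. The log2 ratios of the 4 possible pairs of a shZDHHC15 and a shCON sample ran from 3.40 to 3.998 for UBA7, from 3.26 to 3.83 for ISG15 and from 3.27 to 3.65 for USP18, so these neighbours in the order did not differ beyond the spread of the samples. HERC5 (2.88 to 3.26) overlapped with HERC6 (2.59 to 2.98). The range of UBE2L6, from 2.15 to 2.53, lay below the ranges of the other 5 members. When any 1 of the 4 samples was dropped, the rise in log2 units lay between 3.39 and 3.68 for ISG15, 3.52 and 3.84 for UBA7, 2.22 and 2.43 for UBE2L6, 2.90 and 3.24 for HERC5, 2.65 and 2.91 for HERC6, and 3.32 and 3.59 for USP18.

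The levels per kilobase spanned a wide range in both groups. In shCON cells the order was ISG15 (67.0 ± 9.16 CPM per kilobase, SD, n = 2), UBE2L6 (31.0 ± 2.69), HERC6 (4.05 ± 0.271), USP18 (3.76 ± 0.191), HERC5 (2.43 ± 0.0440) and UBA7 (0.562 ± 0.0933). HERC6 and USP18 overlapped there, and all other neighbours in the order were separate. In shZDHHC15 cells USP18 (41.6 ± 5.65) lay above HERC6 (28.0 ± 3.56) without overlap, while ISG15 (784 ± 112) and UBE2L6 (157 ± 15.8) kept the first places and HERC5 (20.6 ± 3.41) and UBA7 (7.26 ± 0.930) the last. ISG15 made up 60.02% and 62.9% of the summed level per kilobase of the 6 genes in shCON and 75.8% and 75.1% in shZDHHC15. The share of UBE2L6 was 28.9% and 28.2% in shCON and 14.8% and 15.5% in shZDHHC15.

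Levels of the enzymes relative to ISG15 within a library do not depend on how that library is scaled. Per 100 ISG15, per kilobase, UBE2L6 stood at 48.1 and 44.8 in shCON and at 19.5 and 20.7 in shZDHHC15, a 2.31-fold lower ratio. HERC6 stood at 7.01 and 5.25 in shCON and at 3.53 and 3.61 in shZDHHC15, and HERC5 at 4.07 and 3.27 in shCON and at 2.67 and 2.58 in shZDHHC15. These 3 ratios were lower in ZDHHC15-depleted cells without overlap, each at the smallest permutation p of 0.333. USP18 stood at 6.43 and 4.93 in shCON and at 5.28 and 5.33 in shZDHHC15, and UBA7 at 1.04 and 0.675 in shCON and at 0.917 and 0.936 in shZDHHC15. For both of these genes the shZDHHC15 values lay inside the range of the shCON values, and the mean log2 ratio of USP18 to ISG15 differed by -0.09 between groups (exact two-sided permutation p = 1.00, n = 2 per group). This small difference rested on shCON replicate 1, since without it the difference was 0.11.

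The samples of one group also differed from each other in a shared direction. All 6 members were higher in shZDHHC15 replicate 1 than in shZDHHC15 replicate 2, by between 1.15-fold (UBE2L6) and 1.27-fold (HERC5). Of all tested genes, 51.9% were higher in replicate 1. The share at or above the lowest member ratio was 19.2%, but the members set that cut, so all 6 reach it by definition. The members were read in the same pair of libraries, so they are not separate observations of a difference. In the shCON samples 4 members were higher in replicate 1, while ISG15 and UBE2L6 were higher in replicate 2.

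The genes that act beside the members at the same biochemical steps were compared with them through lists of each protein family, from which the members themselves were left out, and whose shares are to be read against the 21.7% higher and 20.3% lower of all tested genes. Among the ubiquitin-like modifiers other than ISG15, 18 of 21 listed genes were tested, and 1 (5.56%) was higher and 11 (61.1%) were lower in ZDHHC15-depleted cells, with a median log2 fold change of -0.35. The largest fall in this list, 0.69 in log2 units, was that of the autophagy modifier GABARAPL1 (SE 0.116, edgeR adjusted p = 2.57e-04). NEDD8 fell by 0.68, SUMO3 by 0.62 and the ubiquitin-ribosomal fusion gene RPS27A by 0.47, all with an adjusted p under 0.05. The number higher was 0 without shCON replicate 1 or shZDHHC15 replicate 1. UBD, which encodes the interferon-linked modifier FAT10, had 0 counts in both shCON samples and 2 and 1 in the shZDHHC15 samples, which is at or under the floor of 3 counts. Many modifier genes have near-identical copies or pseudogenes, and how their shared reads were counted is not given in the sources used here.

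Of the 9 other E1 enzymes, 1 (11.1%) was called higher and 0 lower. UBA6, which activates ubiquitin and FAT10, rose by 0.66 (SE 0.132, edgeR adjusted p = 0.00105). UBA1, the main ubiquitin E1, was at -0.13 (SE 0.0844, edgeR adjusted p = 0.249), from 20292 and 20025 counts in shCON to 19744 and 20544 in shZDHHC15. UBA3, the NEDD8 activator, had the lowest value of this list, -0.23 (edgeR adjusted p = 0.0909). The count of 0 lower became 2 without shCON replicate 1. Of the 36 other E2 enzymes, 2 (5.56%) were higher and 12 (33.3%) lower, with a median of -0.19. UBE2L3, the closest relative of UBE2L6, was at -0.26 (edgeR adjusted p = 0.0294), a call lost in 5 of 12 alternatives. The largest fall was that of UBE2S, a cell cycle E2, by 1.46 (SE 0.113, edgeR adjusted p = 1.50e-07), and the largest rise that of BIRC6, a very large E2-ligase hybrid, by 1.12 (SE 0.165, edgeR adjusted p = 8.22e-05).

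Of the 25 other tested HECT ligases, the family of HERC5 and HERC6, 15 (60%) were higher and 3 (12%) lower, with a median of 0.43. The number higher was 8 with no filter on low counts and 9 without shCON replicate 2, and the number lower was 1 without shZDHHC15 replicate 1. Their relatives HERC1, HERC2 and HERC3 rose as well, HERC1 by 1.55 (standard error 0.164, adjusted p = 3.61e-06), HERC2 by 0.78 (adjusted p = 3.84e-05) and HERC3 by 0.92 (adjusted p = 9.22e-05, all by edgeR). HERC4 was at -0.29 and not called (SE 0.117, edgeR adjusted p = 0.0559), although it passed the threshold in 5 of 12 alternatives. The largest fitted rise of the other HECT genes was that of HECW1, at only 2 and 4 counts in shCON and 13 and 15 in shZDHHC15 (edgeR adjusted p = 0.0192, a call lost in 5 of 12 alternatives, among them those without shCON replicate 1, shCON replicate 2 or shZDHHC15 replicate 2), and the largest fall that of NEDD4L, by 0.85 (SE 0.0989, edgeR adjusted p = 8.96e-06). HECW1 had enough counts to be tested only through its shZDHHC15 samples. Of the 47 other tested ubiquitin-specific proteases, the family of USP18, 15 (31.9%) were higher and 3 (6.38%) lower, with a median of 0.19. USP51 rose most in this list, by 1.32 (SE 0.431, edgeR adjusted p = 0.0233), and its call was lost in 4 of 12 alternatives, among them those without shCON replicate 2 or shZDHHC15 replicate 1. The lowest value was that of USP6, at -0.70 (SE 0.50, edgeR adjusted p = 0.281). The number of lower proteases was 6 without shCON replicate 1 and 0 without shZDHHC15 replicate 1.

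Over all tested genes the calls went with gene length, but not every family followed this. Of the 5273 longest tested genes, 34.6% were called higher and 12.5% lower, and of the 5272 shortest 11.4% were higher and 26.5% lower. The other HECT genes had a median length of 12453 bases, the other modifiers 3251 bases and the members 3371 bases. The part of length in the family counts was not tested.

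**Figure D2:**
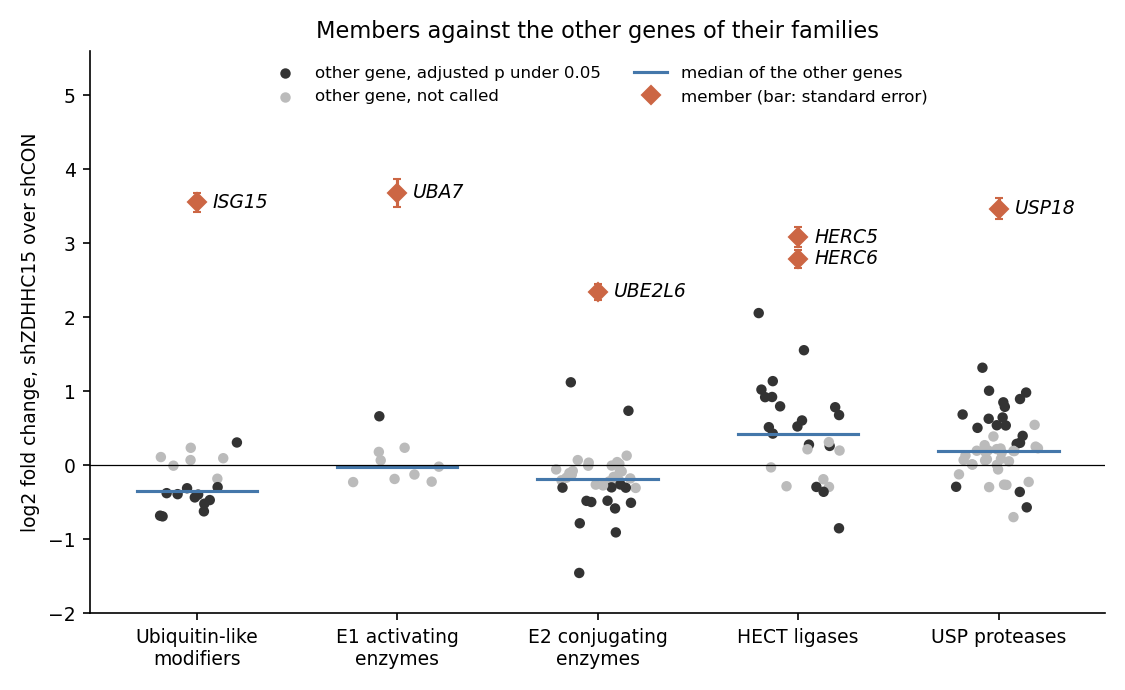
Log2 fold change of shZDHHC15 over shCON for the 6 members (orange, with standard errors) and for all other tested genes of their families (dark where the adjusted p was under 0.05, grey otherwise, blue line for the median). The members lie between 2.34 and 3.68, above every other tested gene of their families. The highest of these is HECW1 at 2.06, which had enough counts to be tested only through its shZDHHC15 samples.

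Genes of interferon signalling, from receptor chains and their kinases to factors that act on interferon-stimulated promoters, were followed through a list of 11, all tested. Of these 8 were higher and 0 lower, a share of 72.7% against 21.7% of all tested genes, with a median log2 fold change of 1.00. STAT2 rose by 1.90 (SE 0.0993, edgeR adjusted p = 1.66e-09). IRF9, which completes the complex that binds the ISRE, rose by 1.88 (SE 0.236, edgeR adjusted p = 1.93e-05), from 50 and 37 to 149 and 200 counts. IRF7, IRF2, JAK1, IRF1 and IFNAR1 were also called higher, with values between 0.32 and 1.78. The call of IFNAR1 was lost in 3 of 12 alternatives, among them those without shCON replicate 2 or shZDHHC15 replicate 1. The lowest value was that of IRF3, at -0.22 (SE 0.103, edgeR adjusted p = 0.0945). IRF3 was called lower only without shCON replicate 1 among the 12 alternatives run.

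Other ligases, proteases and binding partners of ISG15 or USP18 formed a list of 16 genes, all tested. Of these 6 were higher (37.5%) and 1 lower (6.25%), with a median of 0.19, against 21.7% higher and 20.3% lower of all tested genes. The number lower was 0 without shZDHHC15 replicate 1 and 2 with either shCON sample left out. TRIM25 and ARIH1, ligases that have also been tied to ISG15, were not called, with values of 0.21 (SE 0.0872, edgeR adjusted p = 0.0706) and 0.08 (SE 0.104, edgeR adjusted p = 0.566). TRIM25 passed the threshold with library size as the only scaling and with the replicate block. RNF213, a giant ligase that binds ISG15-modified proteins, rose most, by 2.23 (SE 0.139, edgeR adjusted p = 1.29e-08). ITGAL, a chain of the LFA-1 receptor for extracellular ISG15, rose by 1.79 from 40 and 41 to 181 and 125 counts, while ITGB2, the other chain, was at 0.05 (edgeR adjusted p = 0.790). SKP2, an F-box protein linked to the turnover of USP18, rose by 0.91, USP13 by 0.54 and SQSTM1 by 0.49. HDAC6, a deacetylase reported to bind ISG15, fell by 0.34 (SE 0.104, edgeR adjusted p = 0.0179), a call lost with library size as the only scaling and without shZDHHC15 replicate 1.

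Of 20 proteins known to accept ISG15, 9 genes were higher (45%) and 4 lower (20%), with a median of 0.19. Of all tested genes 21.7% were higher and 20.3% lower, so the share of lower genes in this list was near that of all genes. The RNA sensor IFIH1, which encodes MDA5, rose most, by 3.09 (SE 0.119, edgeR adjusted p = 6.05e-11). DDX58, which encodes RIG-I, rose by 2.94 and EIF2AK2, which encodes the kinase PKR, by 2.00. CCND1, which encodes cyclin D1, fell most, by 1.30 (SE 0.0939, edgeR adjusted p = 6.61e-08), from 58294 and 53115 to 22052 and 27309 counts. UBE2N and TSG101 fell by 0.30 and 0.37, calls that were lost when libraries were scaled by total counts only. The number lower was 1 without shZDHHC15 replicate 1 and 2 without shZDHHC15 replicate 2. MX1 had a value of 0.77 and was not called (edgeR adjusted p = 0.0564). The overlap of exons with other genes was examined for the members only.

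**Figure D3:**
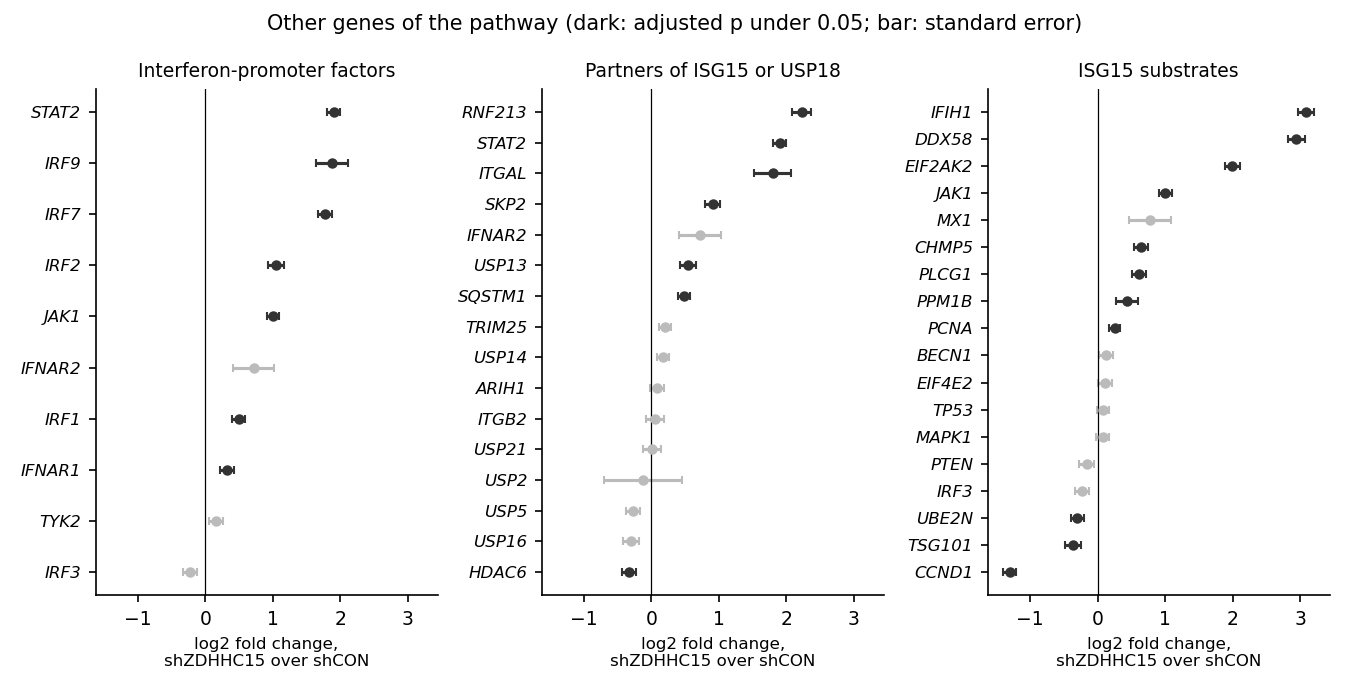
Log2 fold change of shZDHHC15 over shCON with standard errors, dark where the adjusted p was under 0.05. The panels show 10 of the 11 genes of interferon signalling, which include receptor chains and kinases. They also show the 16 partners of ISG15 or USP18 and 18 of the 20 proteins that accept ISG15. STAT2 (1.90), RNF213 (2.23) and IFIH1 (3.09) head the panels, and CCND1 (-1.30) is the lowest gene shown.

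The genes beside the members on their chromosomes were compared in the same fit, as the nearest 2 protein-coding genes on each side. Around ISG15, HES4 at a distance of 965 bases was at -0.31 (adjusted p = 0.0366 by edgeR, a call lost in 4 of 12 alternatives), and AGRN, 5582 bases away, rose by 0.81 (SE 0.0847, edgeR adjusted p = 3.08e-06). RNF223 fell by 1.14, and PERM1 was at -0.32 and not called. INKA1, 176 bases from UBA7, was at -0.11 (SE 0.240, edgeR adjusted p = 0.749), and TRAIP was at -0.34 with a call lost in 6 of 12 alternatives. Both genes directly beside UBE2L6 had almost no counts in shCON cells. They had enough counts to be tested only through their shZDHHC15 samples, so a fall could not have been seen. Their values are therefore descriptive only. SMTNL1, which ends 1381 bases from the end of UBE2L6 on the opposite strand, went from 1 and 3 counts to 60 and 41, a ratio of 22.8 (exact 95% counting interval 8.64 to 85.4, adjusted p = 3.12e-05 by edgeR). SERPING1, the C1 inhibitor gene 29102 bases away, went from 2 and 0 counts to 39 and 23, a ratio of 29.8 (exact 95% counting interval 7.90 to 251, adjusted p = 2.34e-04 by edgeR). TIMM10, the next gene beyond SMTNL1, fell by 0.97. Whether the counting used strand is not given in the sources used here, so reads of UBE2L6 and SMTNL1 that run past the annotated gene ends could not be told apart.

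Beside the HERC5 and HERC6 pair, PPM1K, 93969 bases from HERC6, rose by 2.04 (SE 0.200, edgeR adjusted p = 1.69e-06), from 105 and 68 to 428 and 345 counts. PYURF on the other side, 14821 bases from HERC5, fell by 0.35 (edgeR adjusted p = 0.00876) and ABCG2 by 0.78, calls that were lost without shZDHHC15 replicate 1. Near USP18, PEX26 was at -0.28 (edgeR adjusted p = 0.0646) and TMEM191B at -1.16 (edgeR adjusted p = 0.135), both not called. PEX26 passed the threshold with upper-quartile factors and with the replicate block, and TMEM191B without shZDHHC15 replicate 2. The remaining neighbours, CDHR4, CAMKV, YPEL4, PIGY, TUBA8 and GGTLC3, had too few counts to be tested.

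The genes whose pattern over the 4 samples was most like that of a member were found by the Euclidean distance between log2 CPM values centred on their mean, among the 10687 tested genes that averaged 100 counts or more. The 5 nearest to ISG15 were AKR1C3 (distance 0.199), LGALS9 (0.214), USP18 (0.289), SERPINE2 (0.323) and SLC15A3 (0.355), so another member stood in the third place. For UBA7 they were LAMP3 (0.162) and MXRA5 (0.201), and for USP18 AKR1C3 (0.110) and SERPINE2 (0.119). HERC5 was closest to IFIH1 (0.0423) and IFITM1 (0.0504), HERC6 to XDH (0.0163) and SLC6A14 (0.0648), and UBE2L6 to ZCCHC2 (0.0602) and BMP3 (0.0738). Among the members, UBA7 and USP18 were the closest pair (0.251) and UBA7 and UBE2L6 the farthest apart (1.35). These distances rest on 4 samples in 2 groups and mostly reflect the size of the difference between groups. AKR1C3 and IFITM1 belong to families of closely similar genes, so their counts are less certain.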

How the data were processed

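Total RNA of 4 samples was sequenced on NEBNext Ultra libraries. The authors deposited raw counts of reads per gene, not normalized. The submitters' processing notes name HISAT2, StringTie, SAMtools and hg38, and the counting step and its strand setting are not given in the sources used here. The 4 count columns were used, and the number of per-sample columns not used was 0.

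Genes passing filterByExpr (15817) entered glmQLFit (legacy = FALSE, TMM factors, group as the only term) and glmQLFTest of edgeR 4.0.16 under R 4.3.3 with limma 3.58.1, with Benjamini-Hochberg adjustment over all tested genes and a threshold of 0.05. A standard error is the log2 change divided by the square root of its F value. Ratios within a library used an exact two-sided permutation test over samples. Near-identical stretches were sought with BLAST 2.17.0 in GENCODE 29 transcripts. Counts were simulated with a log2 change of 1.5 in 200 genes of shZDHHC15 over shCON. There edgeR found 85% with 3.41% false calls over 15457 genes. With the replicate block edgeR found 86.5% with 9.90% false calls, and DESeq2 1.42.0 found 77.5% over 15817 genes. The simulation took its spread from the same fit and changed only these 200 genes, whereas 42.0% of tested genes were called in the data. Its rates of false calls may therefore not hold for the data.

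The members, gene lists, tests and named genes were chosen with earlier results of these data known. Named genes were the 6 members, their sister genes, the extremes of each list with a few fixed factors, the chromosomal neighbours and the genes nearest in pattern. A few genes under this rule are not reported here by name, although they are in the counts of the lists. Further members of the lists named beside these were chosen after their values were seen. The alternatives were other scaling factors, filters, the legacy quasi-dispersion, the DESeq2 Wald test, a replicate block and leaving out each sample. The samples of a group differed by more than counting noise, with a chi-square of 8.32 (shCON) and 6.79 (shZDHHC15) per gene, where noise alone gives a value near 1.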

Additional observations from a re-analysis of the deposited data

How the results depend on the processing

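All 6 members kept their direction and an adjusted p under 0.05 in each of the 12 alternatives, including the 4 that left out a sample, where the lone sample of a group is assumed to vary like the others. The largest adjusted p over the 8 alternatives with all samples was 2.13e-04 for UBA7, with no filter on low counts. The number of all genes called higher was 3427 and fell to 2282 without that filter, which tests 30168 genes. The median of all genes shifted by at most 0.07, when libraries were scaled by total counts only. The difference in the USP18 to ISG15 log2 ratio ran from -0.28 to 0.11 with a sample left out, changing sign without shCON replicate 1.

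Replicate numbers did not pair the samples (the deviations of shCON replicate 1 and shZDHHC15 replicate 1 correlated at 0.0344 over genes), and the replicate block gave 3723 genes higher and ISG15 a log2 fold change of 3.55. Counts in the related lists moved as follows, in alternatives applied to them after the data were seen. Partners lower, 1, became 3 with DESeq2 size factors, upper-quartile factors or the replicate block and 0 with library size only. Substrates lower, 4, became 1 with library size only and 2 without a filter. E1 enzymes higher, 1, became 2 with library size only, and E1 enzymes lower, 0, became 1 with upper-quartile factors or the replicate block. Modifiers higher, 1, became 2 with library size only and 0 without a filter. HECT genes lower, 3, became 1 with library size only, and without a filter 8 were higher and 1 lower. Proteases lower, 3, became 5 with DESeq2 size factors or upper-quartile factors and 6 with the replicate block, and proteases higher, 15, became 9 without a filter. With a sample left out the lower counts ran from 0 to 2 for partners, 1 to 5 for substrates, 0 to 1 for inducers, 0 to 2 for E1 enzymes, 1 to 4 for HECT genes and 0 to 6 for proteases, and the higher counts from 0 to 1 for modifiers and 9 to 14 for HECT genes. The cause of these moves was not tested.

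Of 74 other named genes, 53 kept their call in every alternative and 21 did not. At these depths 3 counts correspond to between 0.157 and 0.171 CPM, so genes such as UBD and USP41 could not be compared.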
